A study of Mus musculus with 20 samples.

Results

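The genes described here are 10 regulators of endocrine progenitors and of Notch signalling in the mouse pancreas: the transcription factors Neurog3, Fev, Sox4, Sox9 and Hes1, the receptors Notch1, Notch2 and Notch3, and the ligands Dll1 and Jag1. They were chosen by gene symbol, and each was represented by the probe set that carried its symbol alone. Of the 10 genes, 9 had such a probe set, 1 each, and all 9 were among the 17993 genes tested of 30063 measured. Fev carried none and was not analysed here. RNA from whole pancreas had been measured on 20 Affymetrix transcript arrays. At embryonic day 18.5 (E18.5) there were 5 arrays of inceptor knockouts (Iir -/-) and 4 of wild-type controls (Iir +/+), and on the day of birth (P0) 6 of knockouts and 5 of wild type. All mice were of the C57BL/6J strain, and their sex is given as not determined. At E18.5 the mother had been starved for 2 h before dissection, and at P0 the pups for 5 h, so age and length of starvation cannot be told apart. The labels state neither how the Iir allele was made, in which cells it is missing, nor if arrays stand for separate animals. P-values here therefore measure no more than the spread between these samples.

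Endocrine cells of the pancreas arise from a ductal epithelium, the trunk, whose cells express Sox9. A trunk cell that raises the transcription factor Neurog3 leaves the epithelium and becomes an endocrine precursor. Notch receptors restrain this step: a ligand on a neighbouring cell triggers cleavage of the receptor, its freed intracellular part joins the DNA-binding protein Rbpj, and target genes such as Hes1 are switched on. Hes1 in turn represses Neurog3, and Neurog3 switches on the ligand Dll1. Neurog3 is high in the mouse embryo while endocrine cells are being made and becomes scarce around birth.

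Values are log2 signals made by the authors with the RMA method, in which 1 unit is a doubling. Array medians lay between 4.81 and 4.94. A gene whose mean lay within 1 unit of the mean array median was called weakly measured, which applied to Dll1 alone. A brightness also depends on the probes, so no gene's level is set against another's. Elapor1, the inceptor gene, lay between 5.58 and 6.501 on knockout arrays and between 11.07 and 12.06 on wild-type arrays, without overlap. Marker genes showed pancreas on every array, with means of 12.16 to 13.77 for acinar and 12.06 to 13.04 for endocrine markers, and also other organs to a varying degree. The mean of 10 intestine markers, an organ that has Neurog3-expressing cells of its own, ran from 5.17 to 8.65, and that of 8 skeletal muscle markers from 5.07 to 8.05. On 4 arrays 1 of these means was above 7 (E18.5 knockouts 1 and 2, E18.5 wild type 4 and P0 knockout 4). The differences below were also fitted without those 4 arrays, called organ-rich here for intestine or muscle only. Liver markers varied most, with array means of 9.87 to 13.48 in E18.5 knockouts against 10.28 to 12.74 in wild type, and 9.96 to 14.07 in P0 knockouts against 7.50 to 12.30 in wild type. All 8 liver markers lay above 0 for knockout minus wild type at P0 (median 2.23) and below 0 for P0 minus E18.5 in wild type (median -1.74), with 0 called in any comparison. A separate fit took the liver, intestine and muscle means as covariates. The mean of 3 Y-linked genes was 7.42 to 7.99 on 5 arrays and 4.195 to 4.44 on the others. The 5 were 1 of 5 knockouts and 2 of 4 wild types at E18.5, and 1 of 6 knockouts and 1 of 5 wild types at P0, and this mean was a covariate in another fit.

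**Figure D1:**
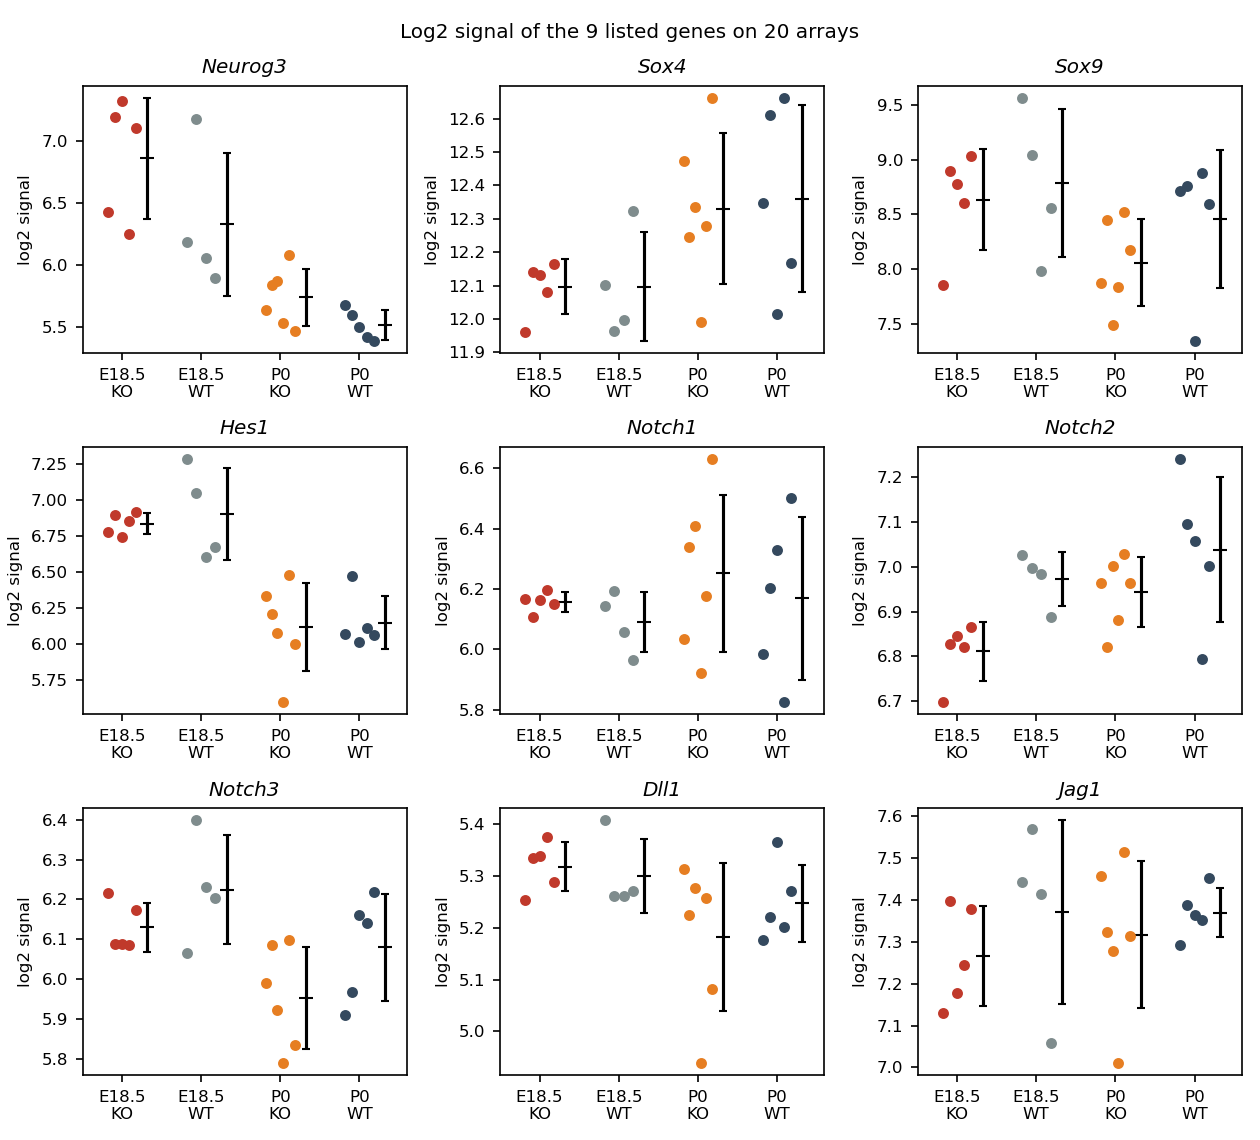
Log2 signal (vertical axes, each with its own range) of the 9 measured genes on each of the 20 arrays, with E18.5 knockouts (KO), E18.5 wild type (WT), P0 knockouts and P0 wild type from left to right. Points are arrays, and the black dash with its bar is the group mean ± SD. Neurog3 and Hes1 are lower on every P0 array than on every E18.5 array of the same genotype. Of all genes tested 6.55% are so in knockouts and 5.36% in wild type. The E18.5 knockouts of Notch2 lie below the E18.5 wild type, as do those of 0.706% of all genes tested.

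The first question was whether loss of inceptor changed these genes at either age. None of the 9 passed the test at E18.5 (limma, adjusted p under 0.05 over all genes tested), where 0.0111% of all genes did, and none at P0, where the share was also 0.0111%. At E18.5, 2 of the 9, Neurog3 and Notch2, had an unadjusted p under 0.05, against 5.45% of all genes, and at P0 0 of the 9 had, against 8.76%. Averaged over both ages none was called, against 0.0167% of all genes. The test of a difference in the knockout effect between the ages called 0 of 9 and 0% of all genes, with 0 of the 9 at an unadjusted p under 0.05. The intervals of these differences are given with each gene, since a p above the threshold does not show that the genotypes were alike.

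The start regions of Neurog3 and of its target Nkx2-2 are shown because both genes fell between the ages. They run from 250 bases before to 50 after the start of the gene in RefSeq (build GRCm38.p6). Neurog3 lies at chr10:62132840-62133139 (+ strand) and Nkx2-2 at chr2:147186353-147186652 (- strand). Capitals mark E-boxes, the letters CANNTG, a broad pattern that includes sites bound by factors of the Neurog3 type. They also mark C-sites, the letters CACGCG read on either strand, that Hes factors bind.
Neurog3: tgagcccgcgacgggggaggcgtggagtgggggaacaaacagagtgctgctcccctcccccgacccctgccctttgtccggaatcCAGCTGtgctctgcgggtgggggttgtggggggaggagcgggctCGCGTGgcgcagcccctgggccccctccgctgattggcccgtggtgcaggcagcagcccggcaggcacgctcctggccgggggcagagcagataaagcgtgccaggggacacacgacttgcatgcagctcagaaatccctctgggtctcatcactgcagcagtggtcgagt
Nkx2-2: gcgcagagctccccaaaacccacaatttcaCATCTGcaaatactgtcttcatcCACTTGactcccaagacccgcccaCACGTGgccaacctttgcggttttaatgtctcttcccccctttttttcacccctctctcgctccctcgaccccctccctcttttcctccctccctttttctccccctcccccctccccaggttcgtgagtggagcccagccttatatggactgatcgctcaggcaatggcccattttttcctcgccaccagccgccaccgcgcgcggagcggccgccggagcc
The Neurog3 window holds 1 E-box, 165 bases before the start, and 1 C-site, 121 bases before it. Of the 32851 full-length windows counted, with 1 chromosome left out, 9.3% hold a C-site and 72.3% an E-box on either strand. A C-site also lies in the windows of Fev, Sox4, Notch2 and Jag1, and in 1 of the 2 windows of Dll1. Those of Notch1, Notch3 and Onecut1 hold none. The Nkx2-2 window holds 3 E-boxes and no C-site. A further motif searched, the N-box (letters CACNAG), has 1 match in the Nkx2-2 window and 0 in that of Neurog3, and 42.5% of windows hold it. Neither of the 2 windows shown holds the Rbpj core letters TGGGAA, which 25.6% of the windows counted have. These are matches of letters, not measured binding.

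Neurog3, the factor that commits trunk cells to the endocrine fate, had the largest difference between genotypes of the 9 at E18.5. At E18.5 its log2 signal was 6.42, 7.19, 7.33, 6.25 and 7.10 on the knockout arrays, against 6.19, 7.17, 6.06 and 5.90 on the wild-type arrays. Of the 5 knockouts 4 were above the wild-type mean, but the groups overlapped, because wild-type array 2 was above 3 of the 5 knockouts. The difference was 0.53 ± 0.24 (SE; 95% confidence interval 0.02 to 1.04; limma, adjusted p = 0.911), and it was 0.81 without wild-type array 2, where it did not pass the test either (limma, adjusted p = 0.883). At P0 the knockouts ran from 5.47 through a median of 5.74 to 6.08, against 5.68, 5.59, 5.50, 5.42 and 5.39 in wild type. Here 5 of the 6 knockouts were above the wild-type mean, and the difference was 0.22 ± 0.22 (interval -0.23 to 0.68; limma, adjusted p = 0.794). Over both ages the knockouts were higher by 0.38 ± 0.16 (interval 0.04 to 0.72; limma, adjusted p = 0.717), which did not pass the test.

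The intestine markers moved unevenly with Neurog3 among the E18.5 arrays. Of 7 tested, 6 lay above 0 for knockout minus wild type at E18.5 (median 0.72), with 0 called. The mean of all 10 ran from 6.13 to 8.65 in knockouts and from 5.83 to 7.598 in wild type. That mean was highest on knockout array 2, where Neurog3 was 7.19, and on wild-type array 4, where Neurog3 was at its lowest of the group, 5.90. Without the 4 arrays rich in intestine or muscle markers the E18.5 difference was 0.42 (limma, adjusted p = 0.937). Over the 20 arrays, after subtraction of the group means, the correlation of Neurog3 with the intestine marker mean was r = 0.03 and with the duct marker mean r = -0.62, given as a description. Duct markers tended to be higher in E18.5 knockouts, with 8 of 8 above 0 (median 0.48) and 0 called. Their array means were 10.17 to 10.88 against 9.84 to 10.23 in wild type, ranges that overlap. Of 9 endocrine markers 7 lay above 0 and 2 below (median 0.17), with 0 called. The part of intestine, duct or endocrine cells in the Neurog3 difference was not tested.

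Sox9, which maintains trunk and duct cells and is needed upstream of Neurog3, varied widely within every group. At E18.5 it was 7.86, 8.90, 8.78, 8.60 and 9.04 in knockouts, against 9.57, 9.05, 7.99 and 8.56 in wild type, a difference of -0.15 ± 0.34 (interval -0.87 to 0.57). At P0 the knockouts ran from 7.49 through a median of 8.03 to 8.52, against 8.71, 8.76, 7.34, 8.88 and 8.60 in wild type. The 6 P0 knockouts lay below 4 of the 5 wild-type arrays, while wild-type array 3 was the lowest of all. The difference of -0.40 ± 0.31 (interval -1.05 to 0.25; limma, adjusted p = 0.731) did not exceed the spread between arrays. Sox4, an SRY-related factor that acts with Neurog3 in endocrine precursors and is also made in many other cells of the embryo, differed by 0.00 ± 0.13 at E18.5 (12.10 ± 0.08 SD in 5 knockouts and 12.10 ± 0.16 in 4 wild types) and by -0.03 ± 0.12 at P0.

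Hes1, the Notch effector that represses Neurog3, did not differ between genotypes beyond its spread. At E18.5 it was 6.78, 6.90, 6.74, 6.85 and 6.92 in knockouts, against 7.29, 7.05, 6.61 and 6.67 in wild type. The knockouts lay inside the range of the wild type, and the difference was -0.07 ± 0.16 (interval -0.40 to 0.26). At P0 the knockouts ran from 5.60 through a median of 6.14 to 6.48, against 6.07, 6.47, 6.02, 6.11 and 6.06 in wild type, with a difference of -0.03 ± 0.14 (interval -0.33 to 0.27).

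Among the receptors, Notch2 was the only gene whose genotypes separated without overlap at an age. Notch2 and Notch1 are the receptors described in the pancreatic epithelium, where Notch2 is found in duct cells. At E18.5 Notch2 was 6.698, 6.828, 6.846, 6.82 and 6.865 in knockouts, against 7.026, 6.997, 6.985 and 6.887 in wild type. All 5 knockouts lay below all 4 wild types, as did 0.706% of all genes tested, and the highest knockout, at 6.865, was close to the lowest wild type, at 6.887. The difference of -0.16 ± 0.07 (interval -0.31 to -0.01; limma, adjusted p = 0.911) was small and did not pass the test. At P0 the knockouts ran from 6.82 through a median of 6.96 to 7.03, against 7.241, 7.095, 7.058, 6.795 and 7.003 in wild type. All 6 were below the wild-type mean of 7.04, but wild-type array 4 was lower than each of them, and the difference was -0.10 ± 0.07 (interval -0.23 to 0.04; limma, adjusted p = 0.694). Over both ages it was -0.13 ± 0.05 (limma, adjusted p = 0.677).

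Mesenchyme markers tended to be lower in knockouts at E18.5, as Notch2 did, with 8 of 8 below 0 (median -0.23) and 0 called. Their array means were 11.58 to 12.22 in knockouts, against 12.21 to 12.48 in wild type. Over the 34 settings tried the Notch2 difference at E18.5 lay between -0.19 and -0.13 and was called in none. Over the 20 arrays, after subtraction of the group means, Notch2 gave r = 0.07 with the mesenchyme marker mean, given as a description. Of the marker lists, the Y-linked mean (r = -0.41) and the duct mean (r = -0.41) gave the values farthest from 0. Of 10 pericyte and smooth muscle markers 9 were below 0 at E18.5 for knockout minus wild type (median -0.25), with 0 called, and that mean gave r = -0.04. The part of mesenchyme, duct or pericytes in the Notch2 difference was not tested.

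Notch1 lay in a narrow band, with means of 6.16 ± 0.03 in E18.5 knockouts (SD, n = 5) and 6.09 ± 0.10 in wild type (n = 4), and at P0 of 6.25 ± 0.26 in knockouts (n = 6) and 6.17 ± 0.27 in wild type (n = 5). Its differences were 0.07 ± 0.13 at E18.5 and 0.08 ± 0.12 at P0. Notch3, the receptor of pericytes and vascular smooth muscle, was 6.22, 6.09, 6.09, 6.09 and 6.17 in E18.5 knockouts, against 6.07, 6.40, 6.23 and 6.20 in wild type. At P0 it ran from 5.79 through a median of 5.96 to 6.10 in knockouts, against 5.91, 5.97, 6.16, 6.14 and 6.22 in wild type. The groups overlapped at both ages, with differences of -0.09 ± 0.08 (interval -0.27 to 0.08) and -0.13 ± 0.07 (interval -0.28 to 0.03; limma, adjusted p = 0.640).

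Neither ligand differed between genotypes beyond its spread. Jag1, the ligand found in trunk and duct epithelium, differed by -0.11 ± 0.10 at E18.5 (interval -0.32 to 0.11) and by -0.05 ± 0.09 at P0. Dll1, the ligand induced by Neurog3 in endocrine precursors, was weakly measured at 0.37 above the mean array median, so that changes in it could be compressed. It spanned 5.25 to 5.38 in E18.5 knockouts, against 5.26 to 5.41 in wild type, and 4.94 to 5.31 in P0 knockouts, against 5.18 to 5.37 in wild type. Its differences were 0.02 ± 0.07 and -0.07 ± 0.06.

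**Figure D2:**
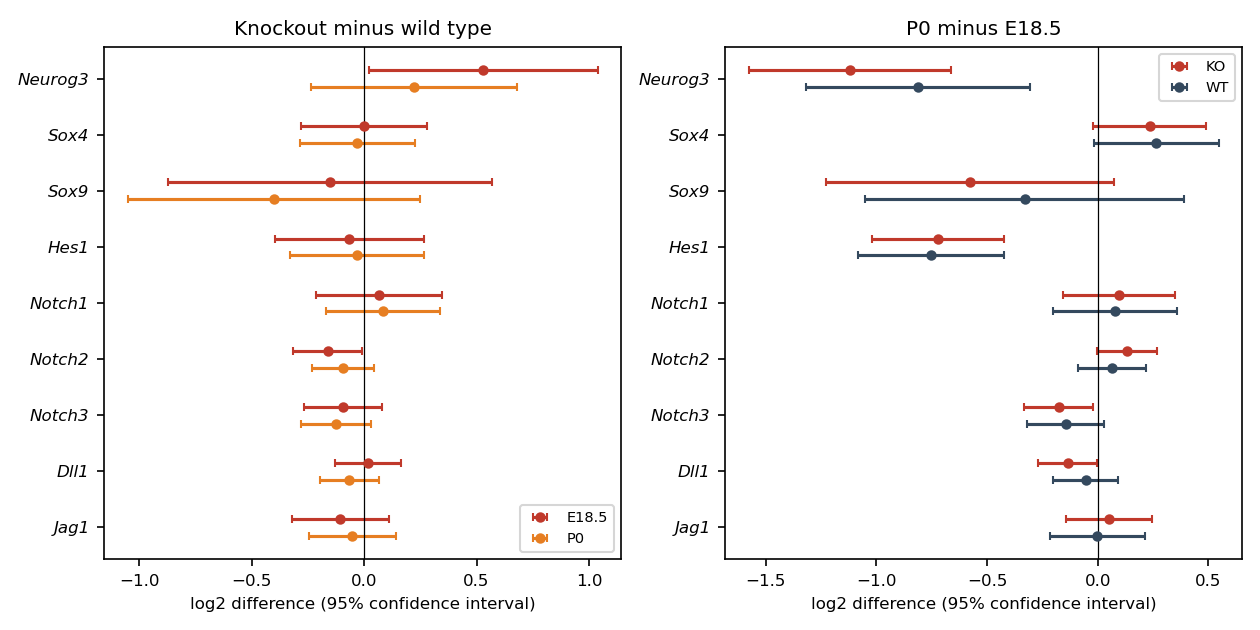
Log2 difference (horizontal axes) with its 95% confidence interval for each of the 9 genes, for knockout minus wild type at each age on the left and for P0 minus E18.5 in each genotype on the right. Between genotypes the intervals of Neurog3 and Notch2 at E18.5 leave out 0, without passing the test after adjustment. Between ages the whole intervals of Neurog3 and Hes1 lie to the left of 0 in both genotypes. Those of Notch3 and Dll1 do so in knockouts only, without passing the test after adjustment.

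The second comparison asked which of the genes differed between P0 and E18.5. Neurog3 and Hes1 fell in both genotypes, and no gene rose. That is 2 of 9 called lower in knockouts, where 23% of all genes were called (11.7% lower and 11.3% higher), and 2 of 9 called lower in wild type, where 8.86% were (4.1% lower and 4.76% higher). An unadjusted p under 0.05 (limma) was found for 4 of the 9 in knockouts, against 34.9% of all genes. In wild type it was found for 2 of the 9, against 24.4%. Both genotypes were compared with their own E18.5 arrays, so the 2 differences share no array. Their tests are not independent, however, since all groups share the same estimate of the spread. P0 arrays carry the sample numbers 1 to 12 and E18.5 arrays 13 to 22, so that age, starvation and sample order cannot be told apart. In whole pancreas, fewer cells of a type and less RNA per cell also cannot be told apart.

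Neurog3 was lower on every P0 array than on every E18.5 array of its genotype, a separation that 6.55% of all genes showed in knockouts and 5.36% in wild type. In knockouts its mean was 5.74 ± 0.23 at P0 (SD, n = 6), against 6.86 ± 0.49 at E18.5 (n = 5), a fall by 1.12 ± 0.22 on the log2 scale, or 2.17-fold (limma, adjusted p = 0.00140). In wild type it was 5.52 ± 0.12 at P0 (n = 5), against 6.33 ± 0.58 at E18.5 (n = 4), a fall by 0.81 ± 0.24, or 1.76-fold (limma, adjusted p = 0.0432). The P0 means lay only 0.88 (knockout) and 0.63 (wild type) above their array medians, near the weak end of the scale, so the fall may be understated. The difference between the 2 falls was -0.31 ± 0.33 and did not pass the test (limma, adjusted p = 0.882).

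The fall of Neurog3 in knockouts was called in all 33 settings tried, at -1.38 to -1.003, and without the organ-rich arrays it was -1.11 (limma, adjusted p = 0.0176). The fall in wild type kept its direction in all 33 but was called in 18 of them, and it rests most on E18.5 wild-type array 2: without that array it was -0.53 (limma, adjusted p = 0.161). Leaving out E18.5 wild-type array 1 or 3, P0 knockout array 1 or 3, or P0 wild-type array 2, 3, 4 or 5 also ended that call. The intestine marker mean was 5.25 to 6.40 in P0 knockouts against 6.13 to 8.65 in E18.5 knockouts, and 5.17 to 6.22 in P0 wild type against 5.83 to 7.598 in E18.5 wild type. Without the organ-rich arrays the wild-type fall was -0.96 (limma, adjusted p = 0.0346). With the liver, intestine and muscle means as covariates the fall was -1.12 in knockouts (limma, adjusted p = 0.0297), and in wild type the value was -0.91 and no longer passed (limma, adjusted p = 0.0674).

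Hes1, the Notch target that represses Neurog3, also fell in both genotypes. Its mean in knockouts was 6.12 ± 0.31 at P0 (SD, n = 6), against 6.84 ± 0.07 at E18.5 (n = 5), a fall by 0.72 ± 0.14, or 1.65-fold (limma, adjusted p = 0.00151). In wild type it was 6.15 ± 0.18 at P0 (n = 5), against 6.90 ± 0.32 at E18.5 (n = 4), a fall by 0.76 ± 0.16, or 1.69-fold (limma, adjusted p = 0.00705). No P0 array reached an E18.5 array of its genotype, as held for 6.55% of all genes in knockouts and 5.36% in wild type. Both falls were called in all 33 settings. Without the organ-rich arrays they were -0.62 (limma, adjusted p = 0.0218) in knockouts and -0.83 (limma, adjusted p = 0.0054) in wild type, and with the organ means as covariates -0.71 (limma, adjusted p = 0.0183) and -0.85 (limma, adjusted p = 0.0108).

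The other 7 genes did not pass the test between the ages in either genotype. Sox4 was 0.23 ± 0.12 higher at P0 in knockouts (interval -0.02 to 0.49; limma, adjusted p = 0.180) and 0.26 ± 0.13 higher in wild type (interval -0.02 to 0.55; limma, adjusted p = 0.241). Sox9 was 8.06 ± 0.40 at P0 against 8.64 ± 0.46 at E18.5 in knockouts, and 8.46 ± 0.63 at P0 against 8.79 ± 0.68 at E18.5 in wild type. Its differences of -0.58 ± 0.31 (limma, adjusted p = 0.196) and -0.33 ± 0.34 (limma, adjusted p = 0.606) have intervals from -1.23 to 0.07 and from -1.05 to 0.39, so that a fall as large as that of Hes1 could not be told from none.

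Of the receptors, Notch3 differed by -0.18 ± 0.07 in knockouts (limma, adjusted p = 0.0949) and by -0.15 ± 0.08 in wild type (limma, adjusted p = 0.295). When the arrays were quantile-normalised again the value in knockouts was -0.19 and passed the test (limma, adjusted p = 0.0448). All 6 P0 knockouts were below the E18.5 knockout mean of Notch3, as were all 5 P0 wild types below that of E18.5 wild type. Notch2 ran the other way, at 0.13 ± 0.07 in knockouts (limma, adjusted p = 0.160) and 0.06 ± 0.07 in wild type, and Notch1 differed by 0.09 ± 0.12 and 0.08 ± 0.13. The ligand Jag1 differed by 0.05 ± 0.09 in knockouts and by 0.00 ± 0.10 in wild type, and Dll1 by -0.14 ± 0.06 (limma, adjusted p = 0.132) and -0.05 ± 0.07.

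Genes that act downstream of Neurog3 or mark endocrine precursors were next described as a group of 23, of which 16 were tested. Between the ages 6 fell and 0 rose in knockouts, 37.5% called lower against 11.7% of all genes. In wild type 2 fell and 0 rose, 12.5% against 4.1%. Both counts include Pax4, whose fall the filter on low signal favours, as described below. Besides Pax4 the wild-type count holds Nkx2-2 alone, so these shares are given as a description. The median difference was -0.06 in knockouts and -0.11 in wild type, beside 0.00 and 0.01 over all genes tested. The medians lay close to those of all genes, and the falls were in 6 transcription factors and corepressors.

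Nkx2-2, a homeobox factor needed for β-cells whose start region holds the 3 E-boxes shown, and Pax4, which directs precursors toward β- and δ-cells, fell in both genotypes. Nkx2-2 was 6.35 ± 0.28 at P0 against 6.88 ± 0.21 at E18.5 in knockouts, a difference of -0.53 ± 0.14 (limma, adjusted p = 0.0103), and 6.21 ± 0.20 at P0 against 6.73 ± 0.25 at E18.5 in wild type, a difference of -0.51 ± 0.15 (limma, adjusted p = 0.0461). Pax4 lay at the array median, with 4.70 ± 0.10 at P0 against 5.07 ± 0.16 at E18.5 in knockouts and 4.68 ± 0.07 at P0 against 4.94 ± 0.11 at E18.5 in wild type. Its differences were -0.37 ± 0.07 (limma, adjusted p = 0.00126) and -0.26 ± 0.08 (limma, adjusted p = 0.0470). To be tested, a gene had to be above the array median on 4 or more arrays. Pax4 can have met this mainly at E18.5, since its P0 means lay below every array median (4.81 to 4.94). Such a filter favours a fall, so the calls of Pax4, which enter the counts above, are given as a description. The wild-type calls were lost in 17 of 33 settings for Nkx2-2 and in 19 of 32 for Pax4.

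The other 4 falls were called in knockouts alone, and the difference between the genotypes was not called for any gene. Rfx3, a ciliary regulator made in endocrine precursors, differed by -0.63 ± 0.20 in knockouts (limma, adjusted p = 0.0282) and by -0.54 ± 0.22 in wild type (limma, adjusted p = 0.139). Sox11, an embryonic relative of Sox4, differed by -0.55 ± 0.14 (limma, adjusted p = 0.00828) and by -0.31 ± 0.15 (limma, adjusted p = 0.222). Runx1t1, a corepressor made in endocrine precursors, differed by -0.44 ± 0.10 (limma, adjusted p = 0.00312) and by -0.33 ± 0.11 (limma, adjusted p = 0.0624). Cbfa2t3, another corepressor of its family, differed by -0.19 ± 0.06 (limma, adjusted p = 0.0317) and by -0.10 ± 0.07. Without the organ-rich arrays Rfx3 (-0.53; limma, adjusted p = 0.225), Sox11 (-0.34; limma, adjusted p = 0.113) and Cbfa2t3 (-0.21; limma, adjusted p = 0.104) no longer passed in knockouts.

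**Figure D3:**
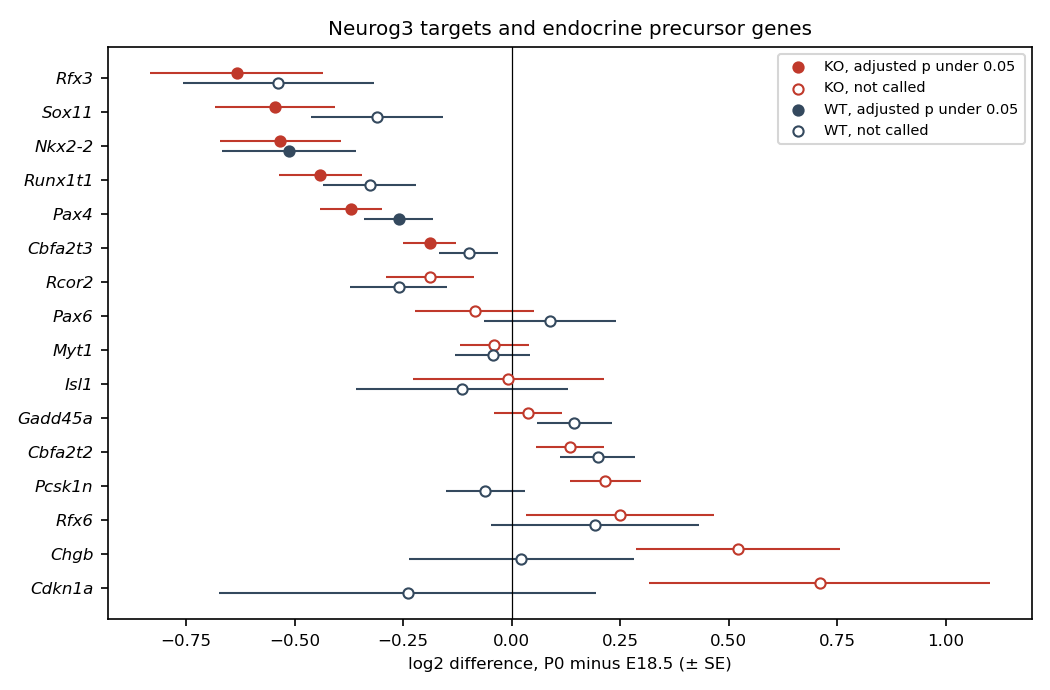
Log2 difference of P0 minus E18.5 (horizontal axis, with SE) for the 16 tested genes downstream of Neurog3 or marking endocrine precursors, in knockouts (KO) and wild type (WT). Filled points passed the test and open points did not. In knockouts 6 genes fell, 2 of them also in wild type, and none rose. Pax4, which is counted in both, lay at the array median.

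Between genotypes, none of these 16 precursor genes was called at either age. At E18.5, 12 of 16 lay above 0 with a median of 0.06 (0.02 over all genes), and at P0 11 of 16 with a median of 0.06 (0.01 over all genes). At E18.5 Gadd45a, a stress-induced gene, had the smallest p (0.20 ± 0.09; limma, adjusted p = 0.911), and at P0 Pcsk1n, an inhibitor of a prohormone convertase (0.19 ± 0.08; limma, adjusted p = 0.554).

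The remaining Notch pathway was followed in 6 lists holding 55 genes, of which 44 were tested. Between the ages 6 rose and 4 fell in knockouts, 22.7% called beside 23% of all genes, and 3 rose and 0 fell in wild type, 6.82% beside 8.86%. The share called was thus near that of all genes in both genotypes. Between genotypes none was called at either age, with medians of -0.01 at E18.5 and 0.00 at P0.

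Among receptors and their modifiers, 1 rose and 3 fell of 10 in knockouts, and 0 were called in wild type. That is 10% higher and 30% lower in knockouts, beside 11.3% and 11.7% of all genes. In wild type 8.86% of all genes were called. Rfng, a fringe enzyme that adds sugar to Notch receptors, fell by 0.55 ± 0.11 in knockouts (limma, adjusted p = 0.00165) and differed by -0.20 ± 0.12 in wild type. Adam10 and Adam17, the proteases that make the ligand-triggered cut, fell by 0.45 ± 0.13 (limma, adjusted p = 0.0182) and 0.32 ± 0.09 (limma, adjusted p = 0.0175) in knockouts. In wild type their differences were -0.42 ± 0.14 (limma, adjusted p = 0.0763) and -0.30 ± 0.10 (limma, adjusted p = 0.0722). Furin, which cleaves the receptor on its way to the surface, rose by 0.21 ± 0.07 in knockouts (limma, adjusted p = 0.0344) and differed by 0.24 ± 0.08 in wild type (limma, adjusted p = 0.0573). Without the organ-rich arrays Rfng alone kept its call in knockouts: Adam10 was -0.37 (limma, adjusted p = 0.159), Adam17 -0.32 (limma, adjusted p = 0.0903) and Furin 0.19 (limma, adjusted p = 0.184). With the organ means as covariates 0 of the 10 were called in knockouts, Rfng being at -0.36 (limma, adjusted p = 0.1035).

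In γ-secretase, the enzyme that frees the intracellular part of the receptor, 2 of 6 genes rose and 1 fell in knockouts. These shares, 33.3% higher and 16.7% lower, stand beside 11.3% and 11.7% of all genes and rest on few genes. Psenen, a subunit of the enzyme, fell by 1.09 ± 0.22 (limma, adjusted p = 0.00205) in knockouts and differed by -0.44 ± 0.25 in wild type. The subunit genes Aph1b and Aph1c rose by 0.37 ± 0.11 (limma, adjusted p = 0.0180) and 0.35 ± 0.10 (limma, adjusted p = 0.0149). They are close copies of each other, so probes may not separate them fully. In wild type Aph1c rose by 0.40 ± 0.11 (limma, adjusted p = 0.0292) and no other subunit was called, 16.7% higher beside 4.76% of all genes. All 3 knockout calls were lost without the organ-rich arrays, where Psenen was -0.90 (limma, adjusted p = 0.0638), Aph1b 0.31 (limma, adjusted p = 0.149) and Aph1c 0.32 (limma, adjusted p = 0.0679). They were also lost with the organ means or the sample number as covariates, and the wild-type call of Aph1c was lost in 7 of 33 settings.

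In the nuclear complex of Rbpj and its partners, 3 of 11 rose in knockouts and 2 in wild type. These shares were 27.3% beside 11.3% of all genes in knockouts, and 18.2% beside 4.76% in wild type, and rest on few genes. Kdm5a, a histone demethylase that joins Rbpj in silencing, rose by 0.67 ± 0.12 in knockouts (limma, adjusted p = 0.000869) and by 0.55 ± 0.13 in wild type (limma, adjusted p = 0.0172). Snw1, a splicing factor that also binds the Notch complex, rose by 0.34 ± 0.10 (limma, adjusted p = 0.0247) and by 0.46 ± 0.12 (limma, adjusted p = 0.0187). Tle3, a Groucho corepressor that Hes factors recruit, rose by 0.40 ± 0.11 in knockouts (limma, adjusted p = 0.0118) and differed by 0.23 ± 0.12 in wild type. The knockout call of Snw1 was lost in 7 of 33 settings, among them without the organ-rich arrays (0.32; limma, adjusted p = 0.155), with the organ means (limma, adjusted p = 0.123) and with the sample number (limma, adjusted p = 0.0592). That of Tle3 was lost with the organ means (limma, adjusted p = 0.120) and with the sample number (limma, adjusted p = 0.1095), and that of Kdm5a in none of the 33. In wild type the calls of Snw1 and Kdm5a were each lost in 3 of 33.

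Of the other ligands (3 tested), the inhibitors (8) and the other Notch targets (6), none was called between the ages. Dll4, the ligand of endothelial cells, came closest, at -0.27 ± 0.10 in knockouts (limma, adjusted p = 0.0507) and -0.32 ± 0.11 in wild type (limma, adjusted p = 0.0685). Hey1, a Notch target of vessels and other tissues, was -0.63 ± 0.24 in knockouts (limma, adjusted p = 0.0722) and -0.36 ± 0.27 in wild type. Whether these targets differed from Hes1 was not tested. At P0 Heyl, a target described in vascular smooth muscle, had the smallest genotype p among the targets, at -0.40 ± 0.14 (limma, adjusted p = 0.482).

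Genes of the trunk and duct gave 2 higher and 1 lower of 8 tested in knockouts, 37.5% called beside 23% of all genes, and 0 in wild type, where 8.86% of all genes were called. Onecut1, a factor upstream of Neurog3 in the trunk, fell by 0.85 ± 0.19 in knockouts (limma, adjusted p = 0.00365) and differed by -0.38 ± 0.21 in wild type (limma, adjusted p = 0.281). The test of that difference between genotypes was -0.47 ± 0.28 (limma, adjusted p = 0.768). Glis3, needed for endocrine differentiation, rose by 0.36 ± 0.12 (limma, adjusted p = 0.0346) and Tead1, a partner of Yap1, by 0.32 ± 0.09 (limma, adjusted p = 0.0145) in knockouts. The call of Glis3 was lost in 13 of 33 settings and that of Tead1 in 3. Without the organ-rich arrays neither passed (Glis3 0.38; limma, adjusted p = 0.0964, and Tead1 0.38; limma, adjusted p = 0.0531), whereas Onecut1 was called in all 33. The serotonin genes, which Fev governs in neurons, were not called in any comparison among 6 tested, with Ddc, the enzyme of the last step of serotonin synthesis, at -0.38 ± 0.18 in knockouts (limma, adjusted p = 0.141) and -0.35 ± 0.20 in wild type (limma, adjusted p = 0.301).

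Marker lists of other cell types changed between the ages as well, and their part in the falls of Neurog3 and Hes1 was not tested. Of 8 mesenchyme markers 5 rose in knockouts and 2 in wild type, of 8 acinar markers 4 fell and 3 fell, of 7 intestine markers tested 2 fell and 1 fell, and of 4 arterial markers 1 fell in each. Of 8 duct markers 1 rose and 2 fell in knockouts and 1 fell in wild type, of 6 macrophage markers 2 rose in knockouts while 2 rose and 1 fell in wild type, and of 9 neuron and Schwann cell markers 1 rose and 1 fell in knockouts and 1 fell in wild type. Over all genes 11.3% rose and 11.7% fell in knockouts, and 4.76% rose and 4.1% fell in wild type. The acinar marker mean was 12.16 to 12.85 in P0 knockouts against 13.42 to 13.77 in E18.5 knockouts, and 12.33 to 12.88 in P0 wild type against 13.15 to 13.74 in E18.5 wild type. The endocrine marker mean was 12.22 to 13.04 in P0 knockouts against 12.22 to 12.76 in E18.5 knockouts, and 12.06 to 12.69 in P0 wild type against 12.13 to 12.52 in E18.5 wild type, with ranges that overlapped. Of its 9 genes 1 rose and 1 fell in knockouts, and 3 rose and 1 fell in wild type. Pcsk1, a convertase of prohormones, fell and Scg2, a granin of secretory granules, rose in both genotypes, and Gcg, the glucagon gene, and Chga, another granin, rose in wild type (limma, adjusted p up to 0.0448 for Scg2 and 0.04755 for Gcg). These 4 were named after their values were seen.

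Within an age, 6 pairs of genes were examined for joint variation over arrays, 12 relations in all. At E18.5 Sox9 and Hes1 varied together over 9 arrays (Pearson r = 0.83, exact permutation p = 0.00653, adjusted p = 0.0392; Spearman rho = 0.87, exact p = 0.00451, adjusted p = 0.0533). Without the 2 arrays farthest from the Sox9 median r was 0.93, with an adjusted exact p of 0.0571 over 7 arrays. At P0 the same pair gave r = 0.40 over 11 arrays (permutation adjusted p = 0.448) and rho = 0.43 (permutation adjusted p = 0.466), a relation that was not established at that age. Notch3 varied with Pdgfrb, a pericyte receptor, over the 11 P0 arrays (r = 0.77, permutation p = 0.00497, adjusted p = 0.0392; rho = 0.76, permutation p = 0.00888, adjusted p = 0.0533). Without the 2 arrays farthest from the Notch3 median r was 0.59 over 9 arrays and no longer passed (permutation adjusted p = 0.376), so the call rests on having those arrays in. Both calls were made on more arrays than these repeats, which had fewer to test. At E18.5 the pair gave r = 0.35 over 9 arrays (exact permutation adjusted p = 0.570). Neurog3 with Sox4, Sox9 with Jag1, Hes1 with Notch1 and Notch1 with Dll4 passed at neither age, with r between -0.13 and 0.49. All arrays of an age enter together, and both genotypes are in each.

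**Figure D4:**
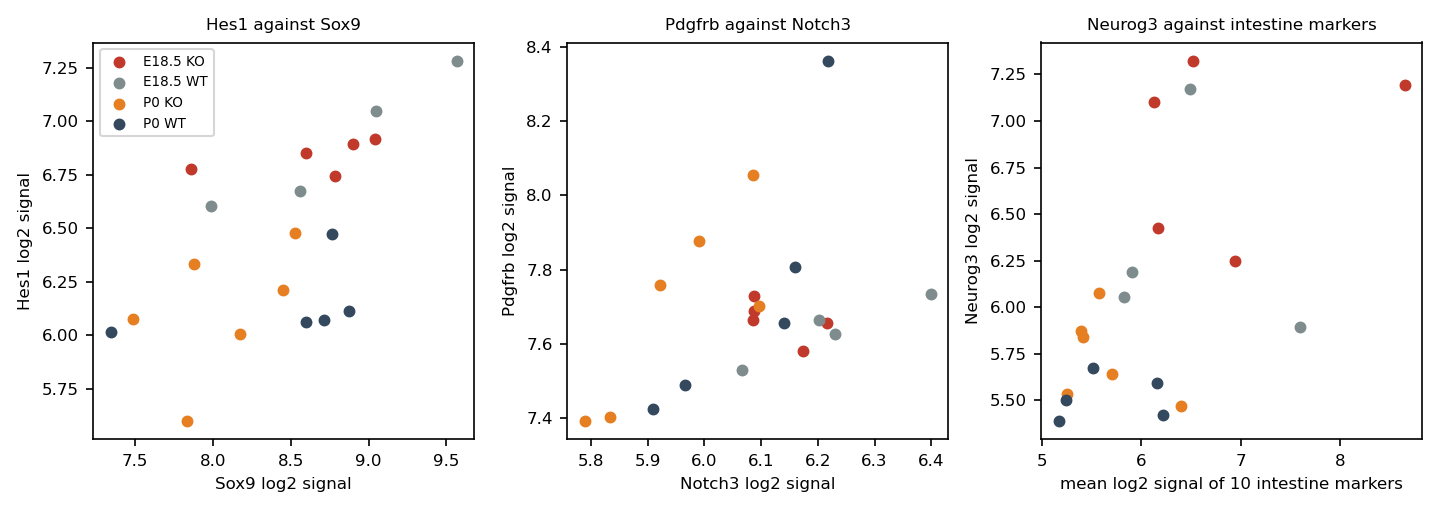
Log2 signals of Hes1 against Sox9 (left), of Pdgfrb against Notch3 (middle) and of Neurog3 against the mean of 10 intestine markers (right) on the 20 arrays, 1 point per array, coloured by group (KO, knockout; WT, wild type). Hes1 and Sox9 rise together among the E18.5 arrays (r = 0.83), and Neurog3 at E18.5 is high on arrays with few and with many intestine markers.

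The genes most like each of 4 members were taken by Pearson r over the 20 arrays after subtraction of the 4 group means, from 17678 genes ranked. They are the top of a long ranking and are given as a description. For Neurog3 they were Bicc1 (r = 0.86), Zbtb7a (0.85), Dynll2 (0.77), Ddx23 (0.76) and Bcl6b (0.76). Bicc1, an RNA-binding protein of epithelia, ran against Neurog3 between the ages, at 0.26 ± 0.11 in knockouts (limma, adjusted p = 0.106) and 0.31 ± 0.12 in wild type (limma, adjusted p = 0.119). For Sox9 they were Bmp7 (0.80), Plut (0.79), Mgrn1 (0.79), Necap2 (0.78) and E2f4 (0.77). For Hes1 they were Top3b (0.80), Slc36a1 (0.79), Ep400 (0.77), Pomt2 (0.76) and Zfp9 (0.76). For Notch3 they were Pcsk7 (0.82), Dock6 (0.81), Ring1 (0.78), Prkd2 (0.77) and Ghrl (0.76). On the same scale Notch3 gave r = 0.72 with the mean of endothelial markers, 0.69 with that of arterial markers and -0.23 with that of pericyte and smooth muscle markers. Pdgfrb is in the last list.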

How the data were processed

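The deposited values are log2 signals per transcript cluster, made by the authors with RMA; the submitters' processing notes name Affymetrix Expression Console, version 1.4.1.46. Per the labels' protocols, RNA came from an RNeasy kit for lipid tissue and was amplified and biotin-labelled with NuGEN kits. The values stop at 19.932. The array's genome build is not given in the sources used here. Of 65956 probe sets, 30604 carried 1 gene symbol, 2146 several and 33206 none. Each gene took its probe set with the highest mean, and a gene was tested if 4 or more of the 20 arrays held it above their median. Limma 3.58.1 in R 4.3.3 fitted a mean for each of 4 groups (16 residual degrees of freedom), and p-values, two-sided, were adjusted over all 17993 genes by the Benjamini-Hochberg method; the fit was tested on simulated data. The number of arrays limits the precision. Correlations were tested by permutation with numpy 2.4.6 (ranks from scipy 1.17.1), exact for 9 arrays and with 100000 resamples for 11. The members, the lists and the named genes were chosen with earlier results of these data known: all listed genes; the most changed called members of each list (at most 4), or else those with the smallest p; and the 5 genes most like Neurog3, Sox9, Hes1 and Notch3. Cbfa2t3 was named besides, after its values were seen. The pairs that need Fev or Neurod1 were left out, since neither has a probe set of its own symbol. Start regions are RefSeq's. Alternatives were other filters, scalings, spreads and covariates and each array left out; leaving out the organ-rich arrays was chosen after seeing the data.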

Additional observations from a re-analysis of the deposited data

Results flagged for a closer look

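Of 36 groups of a gene's arrays examined, 4 held an array whose gap to its nearest neighbour, over the whole range of the group, was above the 95% critical value of Dixon's test; chance gives about 1 in 20. Sox9 was 7.34 on P0 wild-type array 3, against 8.60 to 8.88 on the other arrays of that group. Hes1 was 6.47 on P0 wild-type array 2, against 6.02 to 6.11 on the others. Notch2 was 6.70 on E18.5 knockout array 1, which is rich in skeletal muscle markers, against 6.82 to 6.87 on the others. Dll1 was 5.41 on E18.5 wild-type array 1, against 5.26 to 5.27 on the others.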

How the results depend on the processing

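Between knockouts and wild type none of the 9 genes was called at E18.5 or at P0 in any of 34 settings, nor in any of 33 for the mean of the ages and for the difference between the ages. Between P0 and E18.5, Hes1 in both genotypes and Neurog3 in knockouts were called in all 33 settings, and 2 to 3 of the 9 genes were called in knockouts. In wild type the number called was 1, Hes1 alone, in 15 settings: no filter on low signal, centring on array medians, array weights, only the groups compared, the sample number or the organ marker means as covariates, and leaving out any of 9 arrays (1 to 2 over the 20 arrays left out in turn). The adjusted p of Neurog3 in wild type then ran up to 0.161; apart from the lower number of arrays where they were left out, the cause was not tested. Differences close to 0 changed sign. Knockout minus wild type at E18.5 became 0.014 for Sox4 with centring, 0.020 with array weights, 0.021 with the Y-linked mean as covariate and 0.106 without the organ-rich arrays, and -0.0028 for Dll1 with the Y-linked mean; at P0 it became 0.010 for Sox4 and 0.0077 for Hes1 with array weights, 0.110 for Hes1 and 0.018 for Jag1 with organ marker means as covariates, and 0.038 for Sox4, 0.072 for Hes1 and 0.008 for Jag1 without the organ-rich arrays. P0 minus E18.5 of Jag1 in wild type became 0.016 with centring. With each array left out in turn, knockout minus wild type at E18.5 ran from -0.045 to 0.075 for Sox4, -0.420 to 0.107 for Sox9 and -0.164 to 0.062 for Hes1. At P0 it ran from -0.117 to 0.045 for Sox4, -0.104 to 0.072 for Hes1, -0.093 to 0.008 for Jag1 and -0.0027 to 0.166 for Notch1. P0 minus E18.5 in wild type ran from -0.106 to 0.064 for Jag1 and -0.005 to 0.164 for Notch1. Without the 2 arrays farthest from the median of the first gene, r was 0.932 for Sox9 with Hes1 at E18.5, 0.595 for Notch3 with Pdgfrb at P0 and -0.586 for that pair at E18.5, and -0.341 for Hes1 with Notch1 at P0; these lost their call or changed sign with 7 or 9 arrays left. Same-numbered arrays of the genotypes correlated at 0.09 to 0.23 at E18.5 and at -0.03 to 0.24 at P0, and 3 of 4 and 1 of 5 correlated best with their own number. At E18.5 this is a hint of pairing from the data, but not every pair passed 0.1 at either age, so the fit without a block was kept; with the replicate block 0 of the 9 genes were called between genotypes at either age, and the block could not be fitted for age, which lies between blocks. The number of arrays limits what small differences can show, and Dll1 and P0 Neurog3 lie near the array median.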
